A study of Mus musculus with 2 samples.

Results

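The 10 genes described here build or regulate the contractile apparatus of smooth muscle: the actins Acta2 and Actg2, the myosin heavy chain Myh11, the myosin light chain Myl9, the kinase Mylk, the thin-filament proteins Cnn1, Tagln, Tpm2 and Lmod1, and the long non-coding RNA Carmn. They were chosen by name, and all 10 were found among the 27998 genes of both count tables. The tables came from submandibular salivary glands of adult mice, 12 weeks of age, with 1 library from a p63 KO mouse and 1 from a p63 wild-type (WT) mouse. p63 is a transcription factor of basal and myoepithelial cells, encoded by Trp63. How p63 was removed, when, in which cells, and whether glands were pooled are not given in the labels. The labels name the material as epithelial progenitor cells, whereas their protocol describes dissociation of the whole gland, and both libraries also held endothelial-like, immune-like and red cell-like cells.

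Smooth muscle and myoepithelial cells shorten when calcium and calmodulin activate myosin light chain kinase, which phosphorylates the regulatory light chain and lets myosin pull on actin filaments. In salivary glands this apparatus is carried by myoepithelial cells, which are keratin-positive epithelial cells wrapped around acini and small ducts, and by the mural cells of blood vessels, meaning pericytes and vascular smooth muscle. Both cell types use largely the same genes, so mural cells had to be set apart before the epithelial cells could be described.

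The KO library held 11828669 UMIs in 4726 barcodes and the WT library 8811082 UMIs in 1970 barcodes, a UMI being a tag that marks 1 captured RNA molecule. Of these, 2423 KO and 1663 WT barcodes had 200 or more genes and a mitochondrial share below 20% and were kept, with medians of 2088 and 3406 UMIs. The median mitochondrial share over all barcodes was 14.8% in the KO and 5.57% in the WT library, and 7 kept barcode sequences occurred in both libraries. Trp63 had 20 UMIs in kept KO cells and 149 in kept WT cells. These libraries count the 3′ ends of transcripts, and since the deleted part of the gene is not given, Trp63 UMIs do not check the genotype label. With 1 library per genotype there was no test. UMIs were summed per cell class and divided by the class total to give CPM, and every interval below is an exact 95% interval that covers counting error only. A gene passed the size rule when both sides together had at least 50 UMIs and the interval of the ratio lay wholly beyond 2-fold.

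Cells were clustered without the 10 genes, without 66 other genes of the contractile apparatus and without Trp63. Of the 10 genes, Acta2 alone was among the markers that named a cluster. The myoepithelial-like cluster held 81 KO and 18 WT cells and was named from Acta2, Krt14, Krt5, Krt17 and Trp63, while Oxtr, the oxytocin receptor and the sixth marker, had no UMI. Mural cells had not formed a cluster of their own in the joint clustering. They were picked cell by cell, as cells with a UMI of Rgs5 or Notch3 whose UMIs over 10 mural markers exceeded those of endothelial, epithelial and leukocyte markers. This gate was chosen after the gate first written had found cells with nearly no contractile UMIs. This gate found 13 KO cells, 9 of them inside the myoepithelial-like cluster and 4 in endothelial-like clusters, and 3 WT cells. The KO mural cells had 166 mural marker UMIs, 89 of them of Rgs5, against 27 endothelial and 19 epithelial marker UMIs. The gate itself required this order, so these counts describe the cells and do not test their label. The KO mural cells also had 19 UMIs of the muscle intermediate filament gene Des, which the gate did not use. Of the 10 mural markers, 9 were detected. The KO and WT mural cells had medians of 1644 and 2322 UMIs. The 3 WT mural cells had 25 mural marker UMIs, with 11 of Rgs5 and 0 of Notch3. After removal of the mural cells, 72 KO and 18 WT myoepithelial-like cells remained, with medians of 2160 and 2948.5 UMIs.

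UMIs of the keratins and of Trp63, which had named the cluster, were found in the remaining cells of both libraries, but not equally. They describe the class and do not test its label. A UMI of Krt14, Krt5 or Krt17, keratins of basal and myoepithelial cells, was present in 56 of 72 KO cells (77.8%) and in 18 of 18 WT cells. Krt17 had 333 UMIs in KO and 121 in WT cells, Krt14 had 118 in KO and 163 in WT cells, and Krt5 had 1 in KO and 27 in WT cells. Trp63 had 13 UMIs in KO and 6 in WT myoepithelial-like cells. The 10 mural markers together had 9 UMIs in the KO and 1 in the WT myoepithelial-like cells, after the gate had taken out cells by these markers.

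Serum response factor, with its partner myocardin, drives smooth muscle genes through a motif called the CArG box, a pair of C, a core of A and T bases and a pair of G. RefSeq promoters of the build GRCm38.p6 were matched for 6 of the 10 genes: Acta2, Cnn1, Mylk, Myl9, Lmod1 and Tpm2. The 250 bases before each start were searched. The motif is its own reverse complement, so a match holds on both strands. A full box stood in 1 of the 6 windows, that of Myl9, and in 1.47% of 32851 windows of this length. With at most 1 G or C in the core, 2 of 6 windows and 8.59% of all windows held a box, those of Acta2 and Myl9. The boxes are shown because the genes are known targets of this factor. Each line gives 30 bases on the gene's strand with the box in capitals. A match is a description of letters and does not show binding.
Acta2, box starting 84 bases before the start, chr19:34255438-34255467, minus strand: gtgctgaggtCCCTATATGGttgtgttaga
Acta2, box starting 34 bases before the start, chr19:34255388-34255417, minus strand: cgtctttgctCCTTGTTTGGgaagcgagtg
Myl9, full box starting 161 bases before the start, chr2:156775293-156775322, plus strand: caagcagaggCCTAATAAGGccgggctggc
Myl9, box starting 99 bases before the start, chr2:156775355-156775384, plus strand: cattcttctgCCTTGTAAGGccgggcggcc
In GENCODE M21 the Acta2 gene begins further upstream than in RefSeq, so both of its boxes lie inside the annotated gene there. Windows of Cnn1, Mylk, Lmod1 and Tpm2 held no box by these letters. The Mylk window, chr16:34784700-34784949, lies wholly inside the gene as annotated in GENCODE M21, so the sequence before that gene's own start was not searched.

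Most UMIs of the 10 genes lay in the myoepithelial-like cells, although these were 72 of 2423 KO and 18 of 1663 WT cells. They held 2056 of 2838 UMIs of the 10 genes in the KO library (72.4%) and 1365 of 2536 in the WT library (53.8%). Mural cells held 333 (11.7%) in the KO and 45 (1.77%) in the WT library. Since Acta2 helped to name the class, these shares describe the class and do not test it. Cnn1, which encodes calponin, an inhibitor of actin-activated myosin, was the member with the largest share in KO myoepithelial-like cells apart from Actg2, at 63 of 72 UMIs (87.5%). Mylk had the smallest, at 89 of 204 UMIs (43.6%) in the KO library, and in the WT library 114 of 333 UMIs (34.2%) lay there.

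Immune-like cells, which should lack these genes, gave the level of free RNA in the droplets. They had 2 UMIs of the 10 genes in 353 KO cells (3.45 CPM, interval 0.418 to 12.5) and 8 UMIs in 122 WT cells (22.6 CPM, 9.77 to 44.6). No gene had a UMI in more than 0.567% of KO or 2.46% of WT immune-like cells, at medians of 1493 and 2549 UMIs per cell. Among the epithelial classes, basal duct-like cells numbered 4 in the KO library, with no UMI of the 10 genes, and 432 in the WT library, with 625 UMIs (344 CPM, 318 to 372). Intercalated duct-like cells had 171 CPM (144 to 202) in the KO and 179 CPM (156 to 205) in the WT library. Endothelial-like cells had 230 CPM (192 to 273) in the KO and 208 CPM (142 to 293) in the WT library. In both of these classes the intervals of the libraries overlapped.

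Within those other classes the UMIs were spread unevenly over cells. In the WT library 9 basal duct-like cells had at least 10 UMIs of the 10 genes, and their median depth was 6208 UMIs against 3519.5 for the class. In the KO library 6 intercalated duct-like cells did, with a median of 9350.5 UMIs against 2492 for the class. Whether such deep barcodes hold more than 1 cell was not tested, and the doublet caller marked 4 KO and 1 WT cells in all, so it had done little. Mylk was the most widely detected of the 10 genes in basal duct-like and endothelial-like cells: 85 of 432 WT basal duct-like cells (19.7%) had a UMI, as did 28 of 310 KO (9.03%) and 10 of 49 WT (20.4%) endothelial-like cells. Tpm2, by comparison, was found in 39 of 432 WT basal duct-like cells (9.03%), and Acta2 in 21 (4.86%).

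**Figure D1:**
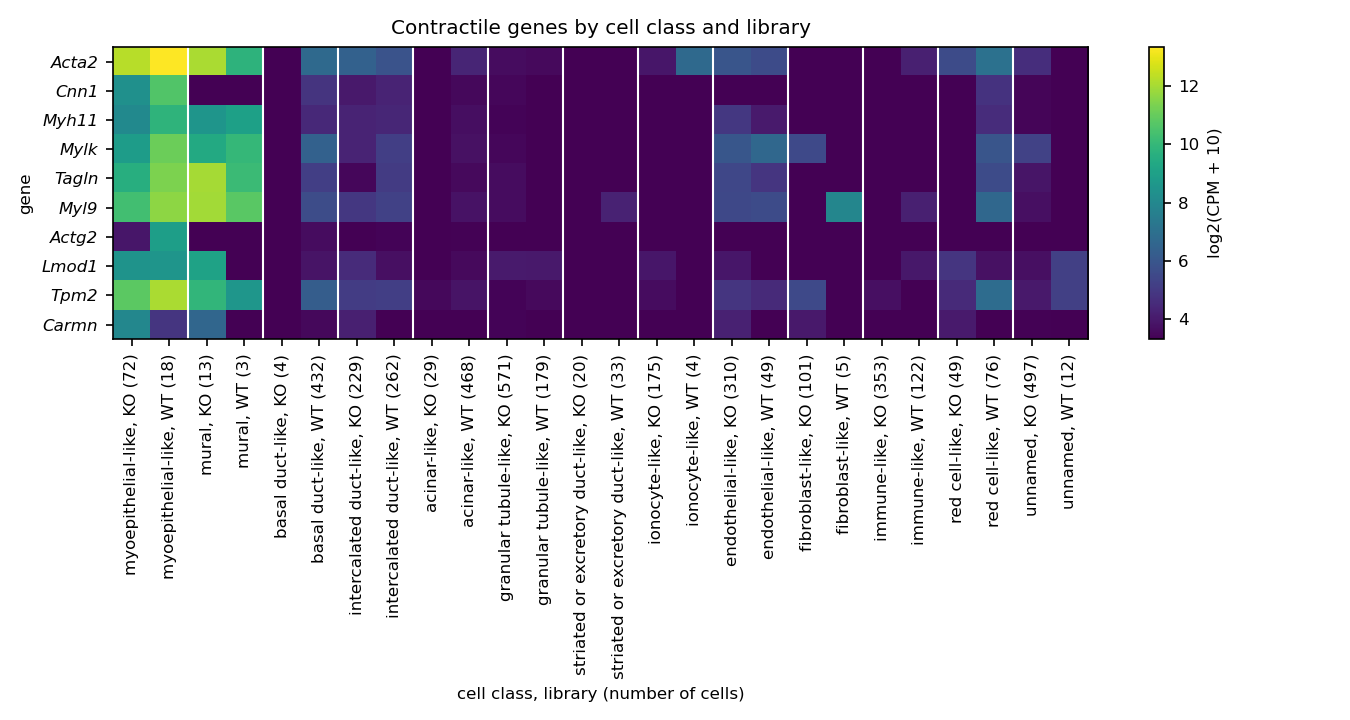
Level of each of the 10 genes, as log2(CPM + 10) on the colour scale, in every cell class (columns, KO left of WT, number of cells in brackets) with at least 3 cells. The bright columns are the myoepithelial-like and mural cells, Cnn1 and Actg2 are dark in both mural columns, and Carmn is bright in the KO but not the WT myoepithelial-like column.

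Set against WT basal duct-like cells, the other keratin-positive class of that library, WT myoepithelial-like cells had a CPM of the 10 genes that was 75.5-fold higher (68.6 to 83.1). In 7 genes with at least 50 UMIs the fold lay between 28.8 for Mylk (22.2 to 37.1) and 107 for Acta2 (90.4 to 128). All 7 passed the size rule as higher, against 3.32% of 3828 genes, and since the class was named with Acta2 nothing is read from that count. Actg2 had 25 UMIs in the 18 WT myoepithelial-like cells and 5 in the 432 WT basal duct-like cells, and Carmn had 1 and 3 UMIs in the same classes.

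Between the genotypes, the 10 genes were together lower in KO than in WT myoepithelial-like cells, and they were not lower by the same amount. Their summed level was 10363 CPM (9920 to 10821) in KO cells and 25992 CPM (24631 to 27408) in WT cells, which is 2.51-fold lower (2.34 to 2.69). Per cell, the 10 genes made up a median of 10.5 of every 1000 UMIs in KO cells, with a range of 0.175 to 39.7, and a median of 25.6 in WT cells, with a range of 3.86 to 49.5. The cells of the libraries overlapped. After each cell had been thinned to 1000 UMIs, a KO cell had a median of 11 UMIs of the 10 genes (range 0 to 38) and a WT cell 27.5 (range 4 to 55). The median mitochondrial share of the class was 4.17% in KO and 4.41% in WT cells. Of 8 genes with enough UMIs, 6 passed the size rule as lower and none as higher, against 3.84% of 677 genes called lower and 6.35% called either way. The median log2 ratio of the 8 was -1.55, against 0.04 over the 677 genes.

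Acta2 encodes the smooth muscle alpha-actin that forms the thin filament (chr19:34241090-34255590, minus strand, GRCm38). It had 984 UMIs in the 72 KO cells (4960 CPM, 4655 to 5280) and 544 in the 18 WT cells (10359 CPM, 9506 to 11267). It was 2.09-fold lower in KO cells (1.88 to 2.32), which did not pass the size rule, and a KO cell had a median of 11 UMIs against 21 in a WT cell. A UMI of Acta2 was found in 70 of 72 KO cells and in 18 of 18 WT cells.

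Actg2 encodes the enteric smooth muscle gamma-actin (chr6:83512905-83536265, minus strand). It had 1 UMI in KO myoepithelial-like cells (5.04 CPM) and 25 UMIs in 6 of the 18 WT cells (476 CPM, 308 to 703). The KO over WT ratio was 0.0106 (0.000258 to 0.0647), with too few UMIs for the size rule. Over all kept cells the KO library had the same single Actg2 UMI, and the WT library had 32. The actins have near-identical coding sequences, and the sources used here do not give how reads shared between them were counted.

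The myosin genes were lower in KO cells throughout. Myh11, the smooth muscle myosin heavy chain that generates force (chr16:14194535-14291372, minus strand), had 52 UMIs in KO cells (262 CPM, 196 to 344) and 48 in WT cells (914 CPM, 674 to 1212), 3.49-fold lower (2.31 to 5.26). Myl9, the regulatory light chain that is phosphorylated to start contraction (chr2:156775420-156781658, plus strand), had 246 UMIs in KO cells (1240 CPM, 1090 to 1405) and 166 in WT cells (3161 CPM, 2698 to 3680), 2.55-fold lower (2.08 to 3.12). Mylk, the kinase of that light chain (chr16:34745210-35002420, plus strand), had 89 UMIs in KO cells (449 CPM, 360 to 552) and 114 in WT cells (2171 CPM, 1791 to 2608), 4.84-fold lower (3.64 to 6.46). At least 1 UMI of Mylk was found in 47 of 72 KO cells (65.3%) and 17 of 18 WT cells (94.4%), and in 34.7% of KO and 77.8% of WT cells once each cell had been thinned to 1000 UMIs.

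Of the thin-filament regulators, Cnn1 had the largest difference. Calponin (chr9:22099216-22109630, plus strand) had 63 UMIs in KO cells (318 CPM, 244 to 406) and 83 in WT cells (1580 CPM, 1259 to 1959), 4.98-fold lower (3.54 to 7.02). Of the 14 alternative processings of this comparison, 10 changed the ratios. Cnn1 and Mylk were lower past the size rule in 10 of these 10, Myh11 and Tagln in 7, Tpm2 in 5 and Myl9 in 4, and all 6 kept a ratio under 1. Tagln, the actin-bundling protein transgelin (chr9:45929619-45936058, minus strand), had 153 UMIs in KO cells (771 CPM, 654 to 904) and 139 in WT cells (2647 CPM, 2225 to 3125), 3.43-fold lower (2.71 to 4.35). Tpm2, the beta-tropomyosin that runs along the filament and gates myosin's access (chr4:43514711-43523765, minus strand), had 353 UMIs in KO cells (1779 CPM, 1599 to 1975) and 226 in WT cells (4304 CPM, 3761 to 4903), 2.42-fold lower (2.04 to 2.87). Tagln overlaps Pcsk7 and Mylk overlaps 1700119H24Rik on the opposite strand. These partners had 103 and 1 UMIs over all kept cells, and the sources used here do not give the strand used in counting.

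Lmod1 did not differ beyond its counting error, and Carmn alone stood higher in KO cells. Lmod1, leiomodin, a protein that starts new actin filaments in smooth muscle (chr1:135324807-135368065, plus strand), had 68 UMIs in KO cells (343 CPM, 266 to 435) and 19 in WT cells (362 CPM, 218 to 565). Its ratio was 0.947 (0.563 to 1.67), and a UMI was present in 61.1% of cells in each library. It was below 1 in 5 and above 1 in 5 of the 10 alternatives that changed it. Carmn, a long non-coding RNA of contractile mural and smooth muscle cells, had 47 UMIs in 27 of 72 KO cells (237 CPM, 174 to 315) and 1 UMI in 18 WT cells (19.0 CPM, 0.482 to 106). The ratio was 12.4 (2.13 to 502) with 48 UMIs in all, just under the 50 that the size rule needed, and it was above 1 in 10 of the 10 alternatives that changed it.

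**Figure D2:**
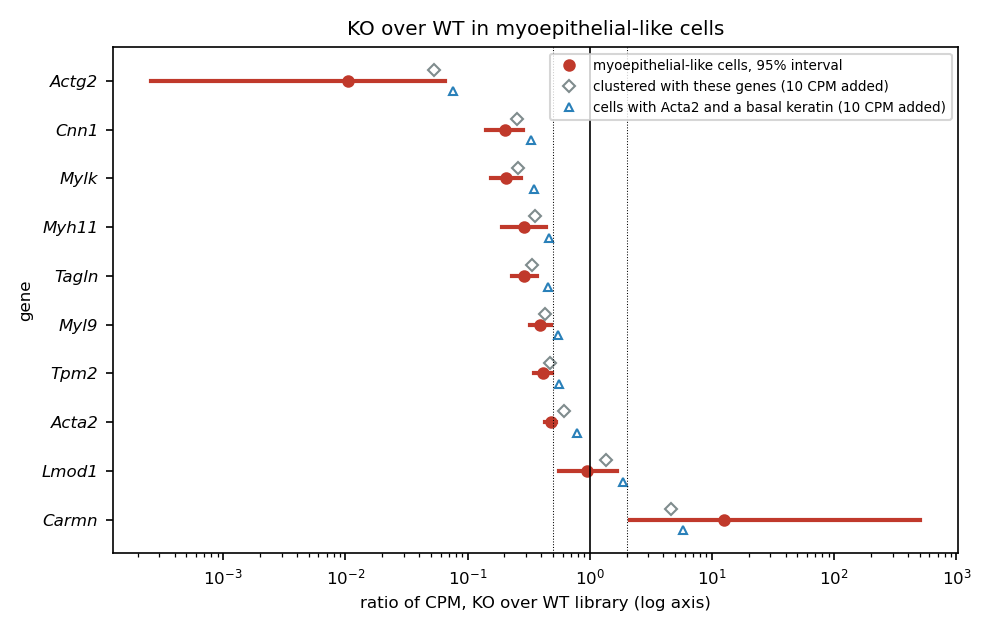
Ratio of CPM, KO over WT, in myoepithelial-like cells for each gene (log axis; red points with exact 95% intervals for counting error; dotted lines at 2-fold). Grey diamonds and blue triangles give the ratio for other sets of cells, with 10 CPM added; Actg2, Cnn1 and Mylk stand at the low end and Carmn at the high end in each set.

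How far the class was lower depended on which cells were counted as myoepithelial. With the contractile genes left in the clustering, the class held 81 KO and 30 WT cells and the summed ratio was 0.481 (0.453 to 0.512). With any cell that had at least 3 Acta2 UMIs and a basal keratin UMI, 62 KO and 35 WT cells, it was 0.613 (0.575 to 0.653) and 2 genes passed the size rule, Cnn1 and Mylk. This gate picks cells by 1 of the 10 genes it then compares. Acta2 took 47.7% of the 10 genes' UMIs in these KO cells and 37.6% in these WT cells. The ratio with this gate therefore depends in part on the gate itself. At Leiden resolution 0.5 the class took in 162 KO cells and the ratio was 0.146 (0.136 to 0.156). The direction was the same in the 10 alternatives that changed the ratio.

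The make-up of the contractile UMIs differed between the genotypes as well, and each gene's share of the 10 genes' UMIs does not depend on the class total. Acta2 took 47.9% (45.7 to 50.04) of these UMIs in KO cells and 39.9% (37.2 to 42.5) in WT cells. Cnn1 took 3.06% (2.36 to 3.90) in KO and 6.08% (4.87 to 7.48) in WT cells, and Mylk took 4.33% (3.49 to 5.30) in KO and 8.35% (6.94 to 9.95) in WT cells. Carmn took 2.29% (1.68 to 3.03) in KO and 0.0733% (0.00185 to 0.407) in WT cells, and Lmod1 took 3.31% (2.58 to 4.17) in KO and 1.39% (0.840 to 2.17) in WT cells. Actg2 took 0.0486% (0.00123 to 0.271) in KO and 1.83% (1.19 to 2.69) in WT cells.

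Acta2, Lmod1 and Carmn thus made up more of the contractile UMIs in KO than in WT cells, and Cnn1, Mylk and Actg2 less, with intervals that did not overlap. Of the 14 alternatives, 8 changed the shares and 6 left them as they were. Over those 8 the values of the libraries, without their intervals, did not overlap for these genes. Mylk lay between 3.67 and 5.70% in KO and between 7.89 and 8.79% in WT cells, and Lmod1 between 3.14 and 3.67% in KO and between 1.17 and 1.47% in WT cells. With cells thinned to 1000 UMIs, the intervals overlapped for Acta2, Cnn1, Lmod1 and Actg2, and did not for Mylk and Carmn. Myh11 took 2.53% (1.90 to 3.30) in KO and 3.52% (2.60 to 4.64) in WT cells, with intervals that overlapped. Tpm2 stood at 17.2% in KO and 16.6% in WT cells and Myl9 at 12.0% in KO and 12.2% in WT cells, both with overlapping intervals. Tagln stood at 7.44% (6.34 to 8.66) in KO and 10.2% (8.63 to 11.9) in WT cells, with intervals that touched. These shares compare 1 library with 1 library, and how they vary between mice was not measured.

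**Figure D3:**
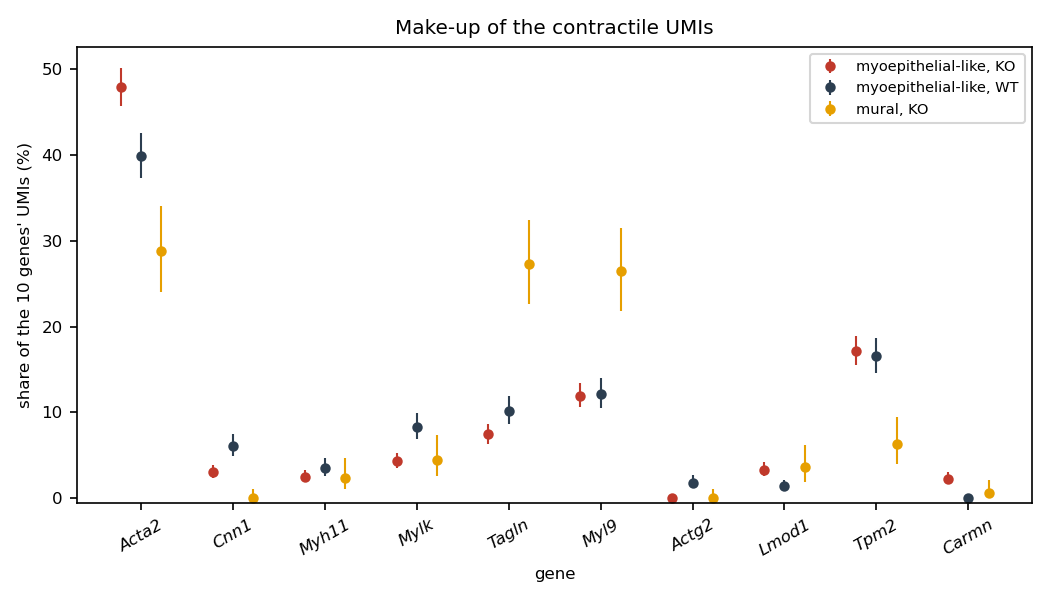
Share of the 10 genes' UMIs taken by each gene (percent, points with exact 95% binomial intervals) in KO myoepithelial-like cells (red), WT myoepithelial-like cells (dark blue) and KO mural cells (orange). Acta2 stands higher and Cnn1 and Mylk lower in KO than in WT myoepithelial-like cells, while Tagln and Myl9 take 27.3 and 26.4% in KO mural cells.

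Lmod1 and Carmn also stood out when no cell class was used. Over all kept cells Carmn had 65 UMIs in the KO library (9.46 CPM) and 4 in the WT library (0.504 CPM), a ratio of 18.8 (6.98 to 70.9). Lmod1 had 115 UMIs in the KO library (16.7 CPM) and 45 in the WT library (5.67 CPM), a ratio of 2.95 (2.07 to 4.26). These 2 of 9 genes with enough UMIs passed the size rule, both as higher, against 6.72% of 10285 genes called higher and 9.21% called either way. Carmn passed in 6 and Lmod1 in 3 of 7 alternatives, and both were higher in KO in all 7. These 7 include the size rule from 10 UMIs, which left the ratios as they were. They also include leaving out the doublet calls, which removed only 4 KO and 1 WT cells. Both of these could do little to undo a pass. Over all cells a level also follows how many cells of each class a library holds, and myoepithelial-like and mural cells were 72 and 13 in the KO library and 18 and 3 in the WT library.

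Against the mural cells of the same library, KO myoepithelial-like cells held the same genes in other proportions: mural cells had more Tagln and Myl9, and myoepithelial-like cells had Cnn1, which had no UMI in mural cells. Tagln had 153 UMIs in myoepithelial-like cells (771 CPM) and 91 in the 13 mural cells (4105 CPM, 3305 to 5040), 5.32-fold lower in myoepithelial-like cells (4.06 to 6.94). Myl9 had 246 UMIs in myoepithelial-like cells (1240 CPM) and 88 in mural cells (3969 CPM, 3184 to 4890), 3.20-fold lower (2.48 to 4.10). Of 8 genes with enough UMIs these 2 passed the size rule, both as lower, against 2.2% of 590 genes called lower and 8.31% called either way. The mural gate was chosen after contractile UMIs under the gate first written had been seen. With that first gate the summed myoepithelial-like over mural ratio was 265, against 0.690 here. The log2 ratios of Tagln and Myl9 were then 6.29 and 6.97, higher in myoepithelial-like cells.

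Cnn1 had 63 UMIs in KO myoepithelial-like cells and 0 in KO mural cells, which makes it at least 2.35-fold higher, taking 3 counts in the mural cells as the limit. The exact interval of its ratio began lower, at 1.85, so Cnn1 did not pass the size rule here. Acta2 was at 4960 CPM in myoepithelial-like and 4330 CPM (3508 to 5288) in mural cells, a ratio of 1.15 (0.928 to 1.43). Tpm2 was at 1779 CPM in myoepithelial-like and 947 CPM (586 to 1448) in mural cells, a ratio of 1.88 (1.21 to 3.07) that did not pass the rule. The remaining genes gave wide intervals: Myh11 had 8, Mylk 15, Lmod1 12, Carmn 2 and Actg2 0 UMIs in the mural cells. Cell by cell, Tpm2 UMIs exceeded Tagln UMIs in 58 of 72 KO myoepithelial-like cells and in 1 of 13 KO mural cells, while Tagln exceeded Tpm2 in 9 KO myoepithelial-like and 9 KO mural cells.

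A single mural cell weighed heavily on these values. It held 124 of the 333 mural UMIs of the 10 genes, with 44 of Acta2, 34 of Myl9 and 22 of Tagln, and it had 7 UMIs of Des, 1 of Notch3 and 0 of Rgs5. Without it the log2 ratio of myoepithelial-like over mural cells was -2.16 for Tagln, still past the rule, and -1.13 for Myl9, no longer past it. For Acta2 it was then 0.91 (0.51 to 1.35) and for Tpm2 1.79 (0.92 to 2.89), neither past the rule. The summed ratio was 0.690 (0.614 to 0.777) with it and 0.980 (0.850 to 1.14) without it. As a share of the 10 genes' UMIs in mural cells, Tagln took 27.3% (22.6 to 32.5) with it and 33.0% (26.7 to 39.8) without it, and Tpm2 took 6.31% (3.95 to 9.48) with it and 4.78% (2.32 to 8.62) without it. In KO myoepithelial-like cells Tagln took 7.44% and Tpm2 17.2%. Cell by cell the order differed from the summed ratio with all 13 mural cells. The 10 genes made up a median of 10.5 of every 1000 UMIs in KO myoepithelial-like cells and 5.43 in KO mural cells. The mural cells ranged from 0 to 51.6.

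The WT library had only 3 mural cells, with 45 UMIs of the 10 genes, so its comparison is weaker. Acta2 had 544 UMIs in WT myoepithelial-like cells and 7 in WT mural cells, a ratio of 11.7 (5.65 to 29.3). Tpm2 had 226 in WT myoepithelial-like and 3 in WT mural cells, a ratio of 11.4 (3.84 to 55.5). Cnn1 had 83 in WT myoepithelial-like and 0 in WT mural cells, at least 4.17-fold higher by the same limit. The exact interval of the Cnn1 ratio began at 3.32. These 3 of 7 genes passed as higher, against 11.2% of 188 genes called higher and 14.9% called either way, and the median log2 ratio of those 188 genes was 0.87. Tagln had 139 UMIs in WT myoepithelial-like and 9 in WT mural cells, a ratio of 2.33 (1.19 to 5.20). Myl9 had 166 in WT myoepithelial-like and 14 in WT mural cells, a ratio of 1.79 (1.04 to 3.34).

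**Figure D4:**
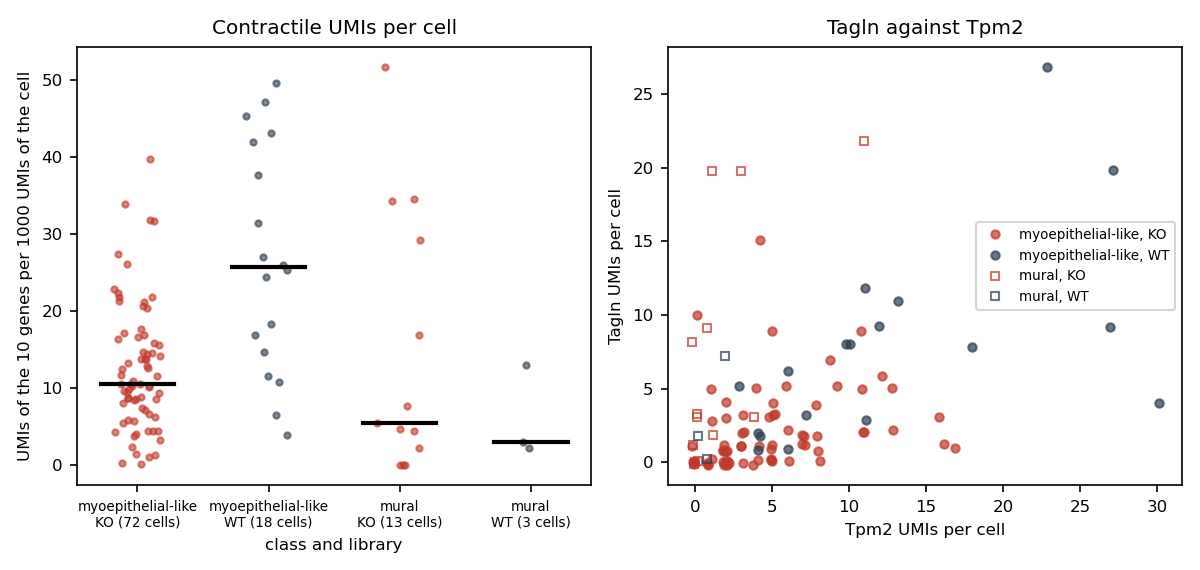
Left: UMIs of the 10 genes per 1000 UMIs of each cell, with points for cells and black lines for medians. The medians were 10.5 in KO and 25.6 in WT myoepithelial-like cells, and 5.43 in KO and 3.02 in WT mural cells. Right: Tagln UMIs against Tpm2 UMIs of the same cells (circles, myoepithelial-like; squares, mural; red, KO; dark blue, WT; points shifted slightly so that they do not hide each other), with most KO myoepithelial-like cells below and most KO mural cells above the diagonal.

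The wider contractile apparatus, summed, stood within its counting error of equal in KO and WT myoepithelial-like cells, while single genes lay on either side. Of 66 other cytoskeletal, signalling and regulatory genes of smooth muscle, 23 had enough UMIs, and 2 passed as lower, against 3.84% of 677 genes called lower, and none as higher. Their summed level was 37758 CPM in KO and 38921 CPM in WT cells, a ratio of 0.970 (0.924 to 1.02). Hspb1 alone gave 2813 of the 7491 KO UMIs and 476 of the 2044 WT UMIs in this sum. The median log2 ratio of the 23 genes was -0.19, against 0.04 over the 677 genes. The 6 with the most UMIs were Hspb1, Actb, Actg1, Csrp1, Myl6 and Cryab. Actb and Actg1, the cytoplasmic actins, had ratios of 0.902 (0.797 to 1.02) and 1.04 (0.895 to 1.205), and Csrp1, a LIM protein of actin bundles, was at 2238 CPM in KO and 2228 CPM in WT cells (interval of the ratio 0.818 to 1.24). The small heat shock proteins Hspb1 and Cryab, chaperones of the actin and intermediate filament cytoskeleton, had ratios of 1.56 (1.42 to 1.73) and 2.83 (1.87 to 4.45), neither past the rule. On the other side, Tpm1, Flna and Cald1 had ratios of 0.437 (0.330 to 0.581), 0.429 (0.242 to 0.777) and 0.680 (0.488 to 0.959), also not past it.

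The 2 that passed were Myl6 and Vim. Myl6, the essential light chain of smooth and non-muscle myosin, had 295 UMIs in KO and 245 in WT cells, 3.14-fold lower (2.64 to 3.73). It was also lower in KO immune-like cells, with 174 UMIs there and 301 in WT immune-like cells, a ratio of 0.353 (0.291 to 0.427), so its difference was not particular to myoepithelial-like cells. Vim, the intermediate filament of mesenchymal cells that myoepithelial cells also make, had 21 UMIs in KO and 40 in WT cells, 7.20-fold lower (4.14 to 12.8). Within the KO library, Vim was also 12.4-fold lower (6.81 to 22.8) in myoepithelial-like than in mural cells. In the WT library the ratio was 2.01 (0.641 to 10.2), on the other side of 1 and with an interval that includes it.

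In the WT library 37 of the 66 genes had enough UMIs for the comparison with basal duct-like cells. Of these, 9 were higher in myoepithelial-like than in basal duct-like cells and 1 was lower, against 3.32% of all 3828 genes called higher and 1.36% called lower. Vim, at 37.4-fold (23.3 to 60.1), and Cald1, the thin-filament protein caldesmon, at 13.5-fold (9.54 to 18.7), stood highest. Myl6 at 6.11-fold, Pdlim7 at 6.03-fold, Actn1 at 4.67-fold, Ppp1r12a at 4.57-fold, Flna at 4.08-fold, Csrp1 at 3.89-fold and Tpm1 at 2.93-fold followed. Tagln2, the non-muscle relative of transgelin, was 8.67-fold lower (2.96 to 42.1), with 3 UMIs in the 18 myoepithelial-like cells and 899 in the 432 basal duct-like cells. Against the 3 WT mural cells, Csrp1, Actg1, Myl6 and Actb were higher, at 8.82-, 5.71-, 4.62- and 3.81-fold. These were 4 of 9 genes with enough UMIs, against 11.2% of all 188 genes called higher. The median log2 ratio of those 188 genes was 0.87. The mural side had only 2, 6, 8 and 13 UMIs of the 4 genes, and the widest interval, that of Csrp1, ran from 2.39 to 73.7. Over all kept cells, Foxf1, a mesenchymal transcription factor, had 70 UMIs in the KO and 2 in the WT library, and Adra1a, an alpha-adrenergic receptor, had 182 in the KO and 65 in the WT library. They were the 2 called higher of 52 other contractile genes with enough UMIs, against 6.72% of all 10285 genes. Neither had a UMI in myoepithelial-like cells of either library.

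Genes outside both lists whose levels followed the 10 genes most closely were Pgf, Igfbp2, Sema3d, Pcp4, Padi1, Il17b, Chil1, Tfap2c, Fhod3 and Osr1. Their Pearson r with the mean log2(CPM + 10) of the 10 genes lay between 0.842 for Osr1 and 0.941 for Pgf over 19 points, each a class of at least 20 cells in 1 library. The points share libraries and differ in depth, and the myoepithelial-like class sets the pattern, so r is a description. Pgf, placental growth factor, had 63 of its 84 KO UMIs and 24 of its 55 WT UMIs in myoepithelial-like cells, and 3 in KO and 2 in WT mural cells. The other genes of the group had no UMI in mural cells. Pcp4, a calmodulin-binding peptide, had 67 UMIs in KO and 132 in WT myoepithelial-like cells, and the cytokine gene Il17b had 88 in KO and 21 in WT cells.

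Genes higher in myoepithelial-like than in mural cells past the size rule in both libraries included Krt14, Krt17, Ctsl, Fxyd3, Apoe and Jun. Taken alone, 6.1% of 590 genes were called higher in the KO and 11.2% of 188 in the WT library. The list of genes passing in both libraries left out mitochondrial, ribosomal protein, haemoglobin and immunoglobulin genes. Genes without a symbol, or with symbols beginning Gm or ending Rik, were also left out, whereas these shares cover all genes. In this list none was lower in both, and none was among the 10. Fxyd3, a regulator of the sodium pump in epithelia, had 491 UMIs in KO and 85 in WT myoepithelial-like cells, and 1 UMI in the mural cells of each library. Krt14 and Krt17 are epithelial genes that the gate on mural cells had itself used.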

How the data were processed

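Both tables hold raw UMI counts per gene and barcode, which the authors deposited for 1 library per genotype; the barcodes were used as deposited. Per the labels' protocols, whole glands were dissociated and run on the 10x Chromium 3′ v2 chemistry. Per the submitters' processing notes, the tools were bcl2fastq 2.19.1, Cell Ranger 2.1.0 and Seurat 3.1.2 and the build was mm10; the sources used here do not give which did which step. Of 27998 Ensembl genes, 27645 took a symbol from GENCODE M21.

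Kept cells of both libraries were clustered together in scanpy 1.11.5, using leidenalg 0.10.2 (10000 UMIs per cell, log, 2000 variable genes, 30 components, 15 neighbours, resolution 1). Clusters took a "-like" name from at least 3 markers that were 2-fold higher. For each class and library the UMIs were added up and divided by their total, as CPM. Ratios have exact conditional Poisson intervals, shares exact binomial (Clopper-Pearson) ones, at 95%. Log2 ratios have 10 CPM added. For a gene at 0, 3 counts over the class were taken as the limit. Reads from the same molecule count once, and intervals cover counting error only. The size rule was run on simulated Poisson counts with known folds. Such counts lack the spread between cells and between libraries, so the run does not check the rule against that spread. Scrublet, through scanpy, marked 0.165% of KO and 0.0601% of WT cells, so doublets were in effect not removed. TMM factors came from edgeR 4.0.16 under R 4.3.3.

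The mural gate first written looked for Rgs5 or Notch3 only outside epithelial-, endothelial- and immune-like clusters. It found cells with nearly no contractile UMIs, because mural cells lay in the myoepithelial- and endothelial-like clusters, and the gate used here was chosen after seeing this. The 10 genes and the other lists were chosen with earlier results of these data known. All 10 genes are named in the text. Of the 66 others, those past the size rule in a comparison and the 6 with the most UMIs in myoepithelial-like cells are named. In immune-like cells, 4 of 24 with enough UMIs passed as lower in KO: Actb, Myl6, Cryab and Cnn2. Cnn2 had 10 UMIs in KO and 49 in WT immune-like cells. Actb also passed as higher in KO mural cells, with 134 UMIs in KO and 13 in WT mural cells. Also named are the 10 genes of most like pattern, and up to 5 genes each way with the most extreme ratios past the rule in both libraries. Of the latter, Apoe and Jun were named after their values were seen, and 1 gene is not reported here. The list of 66 excludes the older symbols Mkl1 and Mkl2, which matched no row.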

Additional observations from a re-analysis of the deposited data

Results flagged for a closer look

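Tagln and Myl9 stood on opposite sides in the libraries when myoepithelial-like cells were set against mural cells, and the difference between the libraries was not tested. The myoepithelial-like over mural ratio of Tagln was 0.188 in the KO library and 2.33 in the WT library, and that of Myl9 was 0.312 in the KO library and 1.79 in the WT library, with intervals wholly on either side of 1. The median log2 ratio over all 188 genes of the WT comparison was 0.87, and that of Myl9 there was 0.84. Myl9 had a log2 ratio of -1.13 in the KO library without the highest mural cell, not past the size rule, and of -0.06 in the WT library with the Acta2 and keratin gate. The mural side rests on 13 KO and 3 WT cells.

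Barcodes left out by the filter held contractile UMIs: 69 in 2303 KO and 64 in 307 WT barcodes, each above the limit of 3 counts. Lmod1 made up 18 of the 69 in the KO library (26.1%, 16.3 to 38.1) and 13 of the 64 in the WT library (20.3%, 11.3 to 32.2), against 4.05% (3.36 to 4.84) of the 10 genes' UMIs in kept KO cells and 1.77% (1.297 to 2.37) in kept WT cells.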

How the results depend on the processing

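No paired analysis was possible because each genotype has 1 library and no test was made.

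The KO over WT ratio of the summed genes in myoepithelial-like cells was 0.141 with no filter on cells, 0.146 at Leiden resolution 0.5, 0.481 with the contractile genes left in the clustering, 0.441 with cells thinned, 0.516 with TMM scaling, 0.429 for the whole cluster, 0.371 for cells with a basal keratin UMI and 0.613 for cells with 3 Acta2 UMIs and a basal keratin. TMM moved the median log2 ratio of all genes to 0.41, against 0.04. The 6 genes past the size rule became 2 with thinning, 3 with TMM and 2 with the Acta2 and keratin gate; the 2 other contractile genes became 5 with no filter, 6 at resolution 0.5, and 1 with thinning and 1 with the Acta2 and keratin gate. Clustered alone, the WT library gave no myoepithelial-like class, so that alternative has no value.

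The myoepithelial-like over mural ratio in the KO library turned above 1 under the strict filter (1.14), TMM (1.11), a mural gate from 2 UMIs (1.12), the gate on cells without 7 markers of other types (1.08), the mural-like cluster of the KO library clustered alone (1.63) and the gate first written (265). It was 0.281 with no filter, 0.290 at resolution 0.5, 0.548 with contractile genes in the clustering, 0.856 with thinning, 0.980 with Rgs5 alone and also without the highest mural cell, and 0.523 with the Acta2 and keratin gate. The 2 genes past the rule became 1 with thinning, 1 with Rgs5 alone, 1 without the highest cell and 8 with the gate first written, where the log2 ratios of Tagln and Myl9 were 6.29 and 6.97. In the WT library the ratio of 4.58 became 3.01 with contractile genes in the clustering, 7.18 with TMM, 3.20 with trimmed totals, 28.9 without the 7 markers, 54.7 with the gate first written and 2.26 with the Acta2 and keratin gate. No joint mural-like cluster existed. Over all kept cells the 2 genes past the rule became 0 with thinning, 1 with TMM and 1 with trimmed totals. Apart from the gates and cell sets themselves, the cause was not tested. Of the other results by gene, 103 of 140 KO over WT and 323 of 390 myoepithelial-like over mural values stayed within their main intervals. Both counts include alternatives that left the ratios as they were. Only 10 of the 14 KO over WT alternatives changed them. The counts also include genes whose main interval is open at an end because a class had no UMI. They are therefore no measure of how stable the values were. Depth limits Actg2, Carmn and every WT mural value.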
